A study of Mus musculus with 6 samples.

Results

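The 7 genes Ihh, Ptch1, Smo, Sufu, Gli1, Gli2 and Gli3, which form the core of the Hedgehog signalling pathway, were examined in a list of DNA methylation peaks from mouse chondrocytes. They were chosen by name, and all 7 lay on sequence that the list covers, among 36520 genes there, of which 15771 are protein-coding. Genes were counted on chromosomes 1 to 6 and 10 to 19 only, and on chromosome 6 only up to shortly before the list's last peak there. Methylated DNA was captured with MBD2, a protein that binds methylated CG sites, and read by sequencing (MBD-seq). The 6 cultures were of primary chondrocytes from knee articular cartilage of mice at postnatal day 3 to 5. The 3 control cultures carried the genotype Dnmt1 flox and the 3 conditional knockout (cKO) cultures Prx1-Cre;Dnmt1 flox/flox. Dnmt1 copies CG methylation onto newly made DNA strands, Prx1-Cre is active in limb mesenchyme, and the floxed allele is thus present in both groups. The labels do not say how many animals went into a culture, what share of cells had recombined, or whether the control allele was homozygous. The study set out to learn how Dnmt1 affects gene expression through DNA methylation.

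A single list of 84111 peaks was analysed. Per its peak names it was called on 3 merged datasets, and its title describes regions whose methylation is mediated by Dnmt1. The sources used here do not say whether the merged datasets were control or cKO cultures, nor which reads served as the caller's background. A fold below may therefore stand for methylation in 1 genotype or for a contrast of both, and which of these it is cannot be told apart. A pileup is that of the merged datasets alone, whose genotype is not known. No column belongs to a sample, so control and cKO could not be compared at any gene. No spread between cultures can be given for any value below, the depth of each culture is unknown, and the cell type could not be checked against markers. No test was run, and all comparisons with other genes are descriptions of this list. The fold enrichment of a peak is the authors' own value, the height of the read pileup over the caller's background. The pileup and the background, in reads, were recovered from the deposited fold and p-value. The lowest background of the list, 6.37 reads, is taken to be the genome-wide average that MACS2, named in the processing notes, uses where no local value exceeds it. In the whole list the median fold was 13.2 (quartiles 8.41 and 21.7) and the median width 415 bp (quartiles 273 and 575 bp), and 75% of the peaks had the lowest background.

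Hedgehog ligands bind Ptch1, which otherwise holds the membrane protein Smo inactive. Active Smo releases the Gli transcription factors from Sufu, and Gli1, Gli2 and Gli3 then act on target genes in the nucleus. In the growth plate, Indian hedgehog (Ihh) from prehypertrophic chondrocytes drives chondrocyte proliferation and, through parathyroid hormone-related protein, delays hypertrophy. Unmethylated CG-rich promoters are usual in such genes, while gene bodies often carry methylation.

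No peak overlapped a promoter of these genes. The promoter table (RefSeq, GRCm38.p6; 250 bases before to 50 after a transcription start) held 1 window for each of 6 genes; Gli1 had no entry. Over all protein-coding promoters, 456 of 15401 windows (2.96%) were overlapped by a peak. The 250 bases before the start are shown for the promoter with most CG sites (Ptch1), that with fewest (Sufu) and that with the longest peak-free stretch of gene behind it (Gli3), from 5′ to 3′ on the gene's strand, with CG sites in capitals. The Ptch1 sequence lies at chr13:63565736-63565985 on the minus strand, the Sufu sequence at chr19:46396646-46396895 on the plus strand, and the Gli3 sequence at chr13:15463473-15463722 on the plus strand.
Ptch1: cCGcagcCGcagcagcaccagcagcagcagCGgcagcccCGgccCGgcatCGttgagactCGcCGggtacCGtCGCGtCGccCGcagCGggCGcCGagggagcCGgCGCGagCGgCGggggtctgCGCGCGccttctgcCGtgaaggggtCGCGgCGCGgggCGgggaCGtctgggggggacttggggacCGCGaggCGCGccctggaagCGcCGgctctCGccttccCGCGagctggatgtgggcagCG
Sufu: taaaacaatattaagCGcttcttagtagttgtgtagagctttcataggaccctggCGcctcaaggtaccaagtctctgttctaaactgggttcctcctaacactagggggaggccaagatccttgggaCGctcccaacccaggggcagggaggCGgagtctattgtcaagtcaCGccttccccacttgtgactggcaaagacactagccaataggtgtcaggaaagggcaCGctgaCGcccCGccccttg
Gli3: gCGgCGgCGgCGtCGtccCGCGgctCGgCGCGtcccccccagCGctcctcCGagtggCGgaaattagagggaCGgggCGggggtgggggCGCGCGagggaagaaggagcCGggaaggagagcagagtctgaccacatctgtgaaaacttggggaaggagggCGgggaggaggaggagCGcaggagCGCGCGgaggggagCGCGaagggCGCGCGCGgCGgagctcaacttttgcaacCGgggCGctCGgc

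The printed parts held 41 CG sites in Ptch1, 8 in Sufu and 34 in Gli3. Over the full 300-base windows the numbers were 47 for Ptch1, 39 for Gli3, 30 for Ihh, 28 for Gli2, 17 for Smo and 12 for Sufu, against a median of 14 over all protein-coding promoters. Only 2.08% of promoters had as many as Ptch1. Whether a promoter carried a peak varied with its CG content in the whole list. Promoters with 6 to 10 CG sites were overlapped in 10.3% of cases, those with 21 to 30 in 1.11% and those with 31 or more in 0.34%. The share was also low with few sites, at 3.5% for 3 to 5, 0.856% for 1 to 2 and 0.336% for none. Among promoters within 2 CG sites of Sufu, 6.35% had a peak, and among those within 2 of Ptch1 none of 246 had one, so the absence of a peak was also the usual state for promoters like these. The nearest peak lay 4.81 kb from the Ihh window, 5.01 kb from Smo, 10.8 kb from Gli2, 12.2 kb from Sufu, 13.8 kb from Ptch1 and 24.7 kb from Gli3; the median over all windows was 7.84 kb. The GLI-binding core GACCACCCA, searched on both strands, was in none of the 6 windows and in 0.188% of all of them (29 windows), which says only that these letters are not there.

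**Figure D1:**
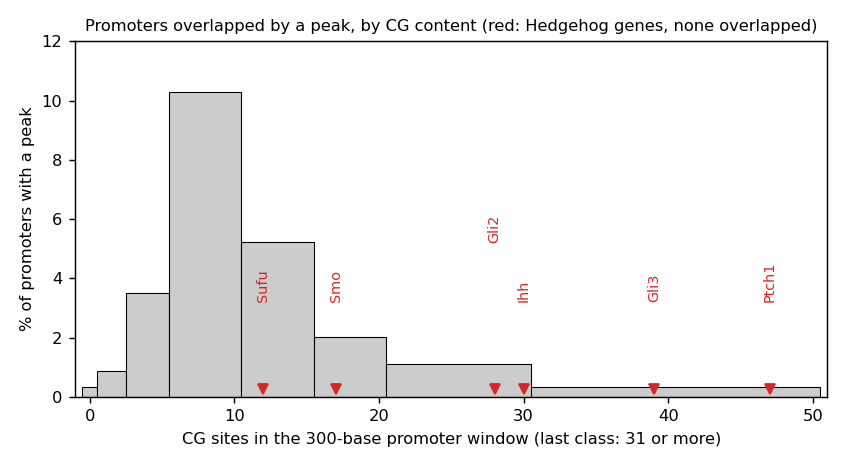
Share of protein-coding promoter windows overlapped by a peak (vertical axis, percent) against the number of CG sites in the 300-base window (horizontal axis, classes as bars; the last class holds windows with 31 or more). Red marks give the CG number of the 6 Hedgehog genes with an entry, none of which was overlapped; Sufu, with 12, lies nearest to the class with the highest share (10.3%, 6 to 10 sites), and Gli3 and Ptch1 lie in the class with 0.34%.

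Every one of the 7 gene bodies held at least 1 peak, against 64.7% of protein-coding genes (10206 of 15771). Long genes hold more peaks, and among genes within 25% of each member's length the share with a peak ran from 47.8% for Ihh, 62.3% for Gli1 and 72.9% for Smo to 87.1% for Ptch1, 90.5% for Sufu, 98.4% for Gli2 and 99.3% for Gli3. The bodies together held 34 peaks, and 4 more lay within 10 kb, which makes 38. With the 10 kb on either side included, 81.7% of protein-coding genes had a peak. The 34 body peaks were 0.952 times the sum of the mean numbers in genes of similar length (35.7), so by means the genes as a set were close to what their length gives. Most of that sum came from Gli2 (mean 10.2) and Gli3 (mean 11.3). Beside the medians of genes of similar length, Ihh, Smo, Sufu, Gli1 and Gli2 had more peaks, Ptch1 the same number and Gli3 fewer. At least as many peaks were found in 47.8% of such genes for Ihh, 39.4% for Gli2, 35.6% for Smo and 26.5% for Sufu. The shares were 4.94% for Gli1, 57.0% for Ptch1 and 82.9% for Gli3. The same split over all protein-coding genes is not given. Gli1 lay well above its median.

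Ihh, the ligand of growth plate chondrocytes, is a short gene (chr1:74945315-74951672, minus strand, 6.36 kb) and had 1 peak. It lay at 74946256 to 74946815, 560 bp wide, 5.14 kb from the 5′ end of the gene and 1.22 kb from its 3′ end. Its pileup was 265 reads over the lowest background, a fold of 36.1, which 4.42% of all peaks reach. Of 1488 genes of similar length, 47.8% had at least 1 peak and 26.1% had at least as large a part of the body under peaks as Ihh (8.81%). Their highest fold had a median of 21.2 among the 712 with a peak, and 17.6% of these reached the fold at Ihh. The neighbouring gene Cfap65 lies 9.69 kb away, and no peak lay in the 10 kb on either side of Ihh.

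Ptch1, the receptor and itself a target of the pathway (chr13:63508328-63573460, minus strand, 65.1 kb), had 3 body peaks, the median number of genes of its length. The peak nearest the 3′ end, at 63511498 to 63512163 (666 bp), was the strongest of all 38, with 332 reads and a fold of 45.2, a value reached by 0.647% of the list. Among 1300 genes of similar length with a peak, 3.46% had one of this fold or more. A second peak, 1505 bp away, was weak (195 bp, 58 reads, fold 8.0). The third, at 63533273 to 63533708 (436 bp), had 165 reads and a fold of 22.5. From there to the 5′ end, 39.8 kb (61.0% of the gene) was without a peak, a stretch that includes the promoter window shown above, which starts inside the gene model. A single flanking peak lay 6.46 kb before the 5′ end (fold 13.3), within the lncRNA LOC102632415.

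Smo, the membrane protein that carries the signal past Ptch1 (chr6:29735497-29761366, plus strand, 25.9 kb), also had 3 body peaks, where genes of its length had a median of 2 and 35.6% had 3 or more. The first 17.9 kb (69.3% of the gene) held none. The strongest, at 29754180 to 29754954 (775 bp), had 278 reads and a fold of 37.8, and 414 bp before it lay a peak of 103 reads and a fold of 14.1. The last, 2.30 kb from the 3′ end, had 80 reads and a fold of 11. Another with the same pileup and fold lay 5.40 kb before the gene. The pseudogene Gm13717, inside Smo, had none.

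Sufu, the cytoplasmic inhibitor of the Gli proteins (chr19:46396896-46488804, plus strand, 91.9 kb), had 8 body peaks and none in its flanks. This equals the upper quartile of 1274 genes of similar length (median 4), and 26.5% had 8 or more. The number came mostly from small peaks, and among peaks with a −log10 q of 50 or more Sufu had 3, a number reached by 52.2% of these genes. Of the 8, 5 were 92 to 148 bp wide with folds of 6.10 to 7.33 and pileups of 44 to 53 reads, near the lower limit of the list, and 2.22% of the gene lay under peaks against a median of 1.80%. A pair 415 bp apart stood out, at 46473335 to 46473846 (256 reads, fold 34.9) and 46474262 to 46474743 (225 reads, fold 30.7), some 76.7 and 77.6 kb from the 5′ end. The remaining peak, at 46459032 to 46459510, had 95 reads and a fold of 13. The first 29.8 kb of the gene had no peak.

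Gli1, an activator whose own transcription is a standard readout of Hedgehog signalling, was the most densely occupied of the 7 (chr10:127329882-127341579, 11.7 kb). It held 5 body peaks, 42.7 per 100 kb, where genes of its length had a median of 1 and an upper quartile of 2. Of 1902 such genes, 94 (4.94%) had 5 or more. This share was 18% when only peaks with a −log10 q of 100 or more were counted, of which Gli1 had 2, and 3.1% for peaks of at least the list's median fold and 3.03% with genes of every biotype for comparison. The peaks covered 2761 bp, 23.6% of the gene, against a median of 3.30% (2.84% of genes had at least as much). In chromosome order, from the low-coordinate end, they had folds of 14.4 (127331278 to 127331804), 19.0 (127332346 to 127333001), 37.2 (127333424 to 127334553), 7.19 (127335995 to 127336139) and 14.8 (127337322 to 127337624). The first 3 lay 541 and 422 bp apart and had 105, 139 and 273 reads. The third, 1130 bp wide, is wider than all but 2.59% of the list. The high-coordinate 3.96 kb of the gene held none. The promoter table does not give the strand of Gli1, so its 5′ and 3′ ends are not named here. Another 2 peaks lay beyond the low-coordinate end, 0.278 and 5.98 kb away with folds of 7.87 and 9.77, both within Arhgap9, which overlaps Gli1 by 66 bp. Gli1 was the only one of the 7 with a peak within 1 kb of a gene end, which 21.8% of protein-coding genes have.

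Gli2, the main activator downstream of Smo (chr1:118834061-119054405, minus strand, 220 kb), had 10 body peaks, where genes of its length had a median of 8 (quartiles 4 and 13.5). They fell into a 3′ and a 5′ set with 86.6 kb between them that held none. The final 10% of the gene held 5, with folds from 10.3 to 25.6. The peak at 118837123 to 118838277, 1155 bp wide, had the highest pileup of all 38, 421 reads, but over a background of 39.2 reads, which gave a fold of 10.5. It was the only one of the 38 above the lowest background, and 237 bp from it a peak of 710 bp had 119 reads and a fold of 16.3. The strongest by fold, at 118855335 to 118855795, had 188 reads and a fold of 25.6. It was the lowest gene maximum of the 7, and 68.3% of genes of similar length with a peak had a maximum at least as high. The other 5 peaks lay 40.9 to 112 kb from the 5′ end, with folds from 6.10 to 22.7; the one nearest to that end (119013113 to 119013854, 742 bp) had the 22.7. The lncRNA Gm51642 and the microRNA gene Mir6346, both inside Gli2, had none.

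Gli3, which in the absence of ligand is processed to a repressor (chr13:15463723-15730026, plus strand, 266 kb), is the longest of the 7 and had 4 body peaks. Genes of its length had a median of 8 (quartiles 5 and 15), and 22.5% of 409 had 4 or fewer. Peaks covered 0.733% of the gene, below the lower quartile of 0.756%. From the 5′ end, 186 kb (69.9% of the gene) held no peak. Peak-free stretches, here and in the other members, were not set beside those of genes of similar length. The first, at 15649839 to 15650523 (685 bp), had 110 reads and a fold of 15.1. The other 3 lay in the last 11.5 kb, with folds of 8.0, 12.1 and 35.0, and the strongest, at 15724416 to 15725190 (775 bp, 257 reads), was 5.22 kb from the 3′ end. The lncRNA Gm6556, which overlaps the 5′ end by 896 bp, had none.

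**Figure D2:**
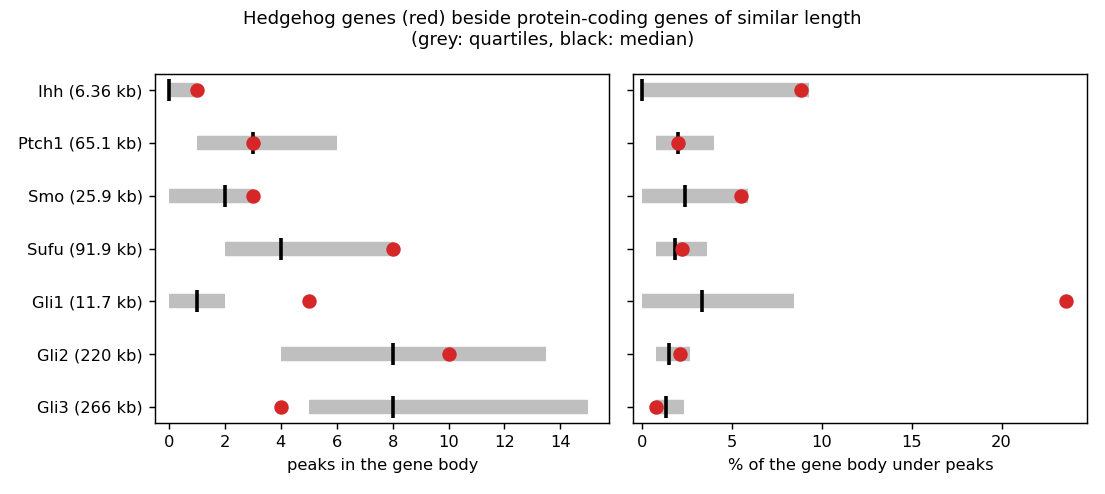
Number of body peaks (left) and percent of the gene body under peaks (right) for the 7 genes (red points), beside the quartiles (grey bars) and median (black ticks) of protein-coding genes within 25% of the same length. Gli1, with 5 peaks and 23.6% of the body covered, lies beyond the upper quartile on both axes, and Gli3, with 4 peaks and 0.733%, lies below the lower quartile on both.

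The peaks lay mostly toward the 3′ end. In the 6 genes with a known strand, 24 of 29 body peaks (82.8%) lay past the middle of the gene and 12 (41.4%) in its final 10%, while the first 10% had none. The same bias, less pronounced, was present in the 8006 protein-coding genes with a strand and a body peak. Of their 35568 peaks, 61.8% lay past the middle, 16.5% in the final 10% and 5.66% in the first 10%. The strongest peak lay past the middle in 6 of 6 Hedgehog genes and in 65.2% of those genes. The peaks in the final 10% came from Gli2 (5), Gli3 (3), Ptch1 (2), Smo (1) and Sufu (1), so Gli2 and Gli3 gave 8 of 12. Peaks of a gene are not independent of each other, and Gli2, with 6 of 10 peaks past the middle, was close to genes of its length, where 60.9% of the peaks lay there. This count was chosen after the data were seen.

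**Figure D3:**
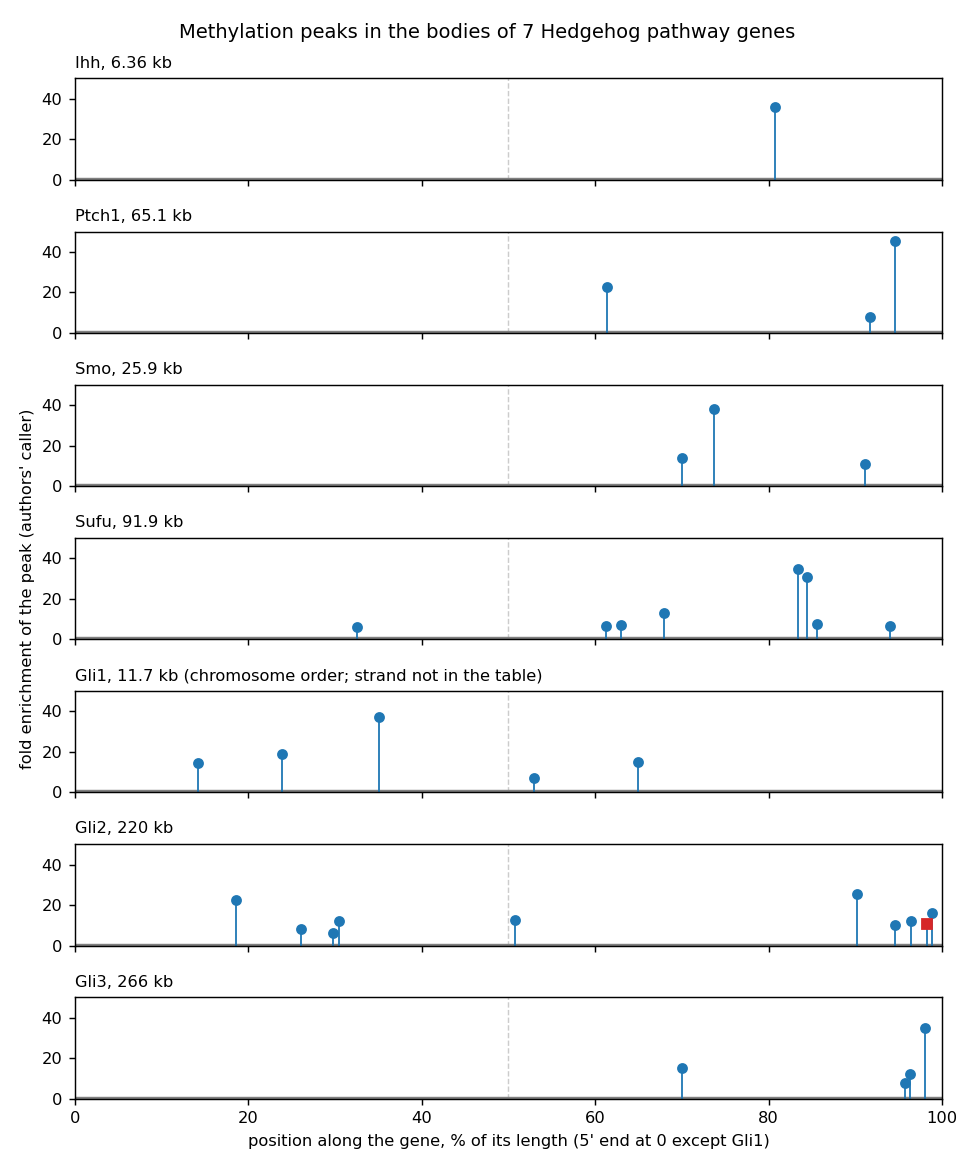
Each body peak of the 7 genes at its position along the gene (horizontal axis, percent of gene length; 5′ end at 0 except for Gli1, drawn in chromosome order) with its fold enrichment (vertical axis). Circles are peaks at the lowest background and the red square is the Gli2 peak above it; the dashed line marks the middle of the gene. In Ihh, Ptch1, Smo and Gli3 all body peaks lie past the middle, and in Gli2 5 of 10 lie in the final 10%.

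**Figure D4:**
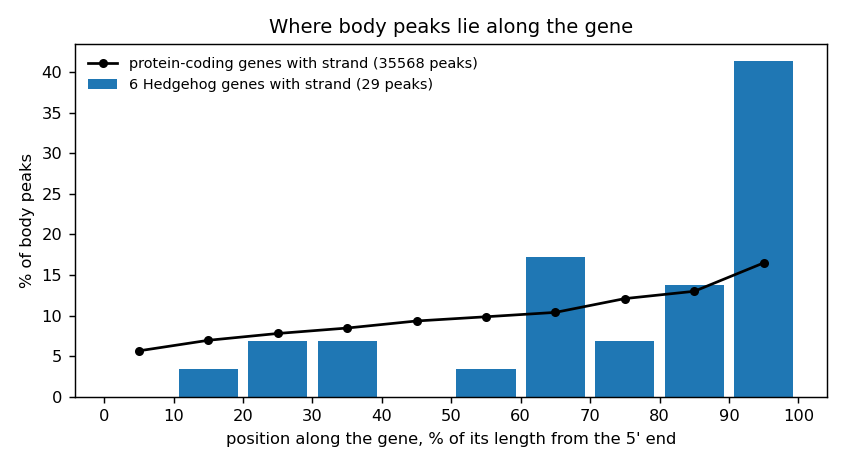
Share of body peaks (vertical axis, percent) in successive steps of 10% of the gene, from the 5′ end (horizontal axis). Bars are the 29 peaks of the 6 Hedgehog genes with a known strand and the black line the 35568 peaks of protein-coding genes with a strand; the final step holds 41.4% of the former and 16.5% of the latter.

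The 38 peaks had a median fold near that of the whole list, but were narrower and less significant by their medians. Their median fold was 12.3 (range 6.10 to 45.2), their median width 306 bp (92 to 1155 bp) and their median −log10 q 71.7, where the list had 13.2, 415 bp and 107. The differences in width and −log10 q were smaller for body peaks alone. The 34 body peaks had medians of 12.8, 362 bp and 78.2, and all peaks in protein-coding bodies 13.7, 393 bp and 95.3. A fold of at least the list's median was found in 17 of 38 and one of at least its upper quartile in 10 of 38. A fold above 30 was found in 7 of 38 (10.7% of the list), spread over Ihh, Ptch1, Smo, Gli1, Gli3 and, with 2, Sufu. A fold under 10 was found in 12 of 38 (34.5% of the list). The lowest background was shared by 33 of 34 body peaks, against 85.1% of all peaks in protein-coding bodies. If the lowest background is the genome-wide average, the fold of these 33 compares the pileup with that average and not with a local measurement.

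**Figure D5:**
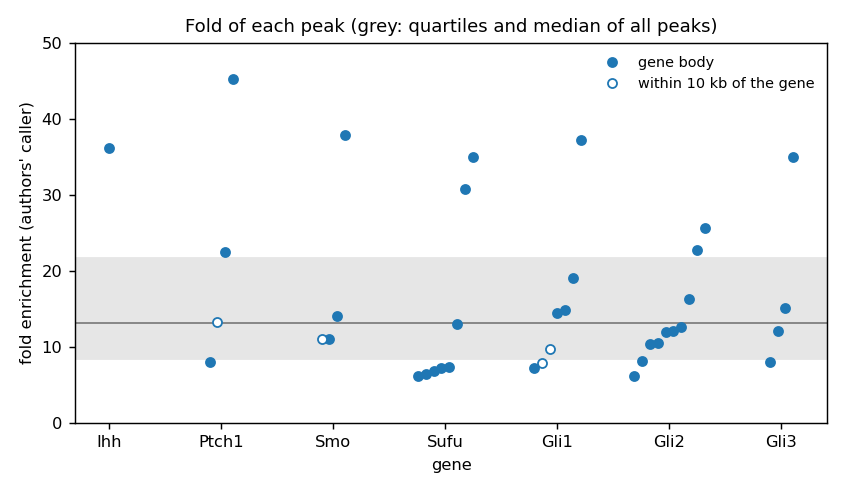
Fold enrichment (vertical axis) of each of the 38 peaks by gene; filled points lie in the gene body and open points within 10 kb of it. The grey band and line are the quartiles (8.41 and 21.7) and the median (13.2) of all 84111 peaks; 6 genes have a peak above 30, and Gli2 reaches 25.6.

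Other genes of the pathway were counted from a list of 43, of which 30 lay on sequence analysed here. At least 1 body peak was found in 24 of 30 (80%), against 64.7% of protein-coding genes and, averaged over the 30, 78.6% of genes of similar length. By role these were 6 of 7 genes for ligands and their release, 4 of 5 for reception, 6 of 7 for the cilium and Smo handling, 4 of 6 for Gli processing and 4 of 5 targets or growth plate partners. Gene length differs between the roles and no share at similar length is given for each, so these counts do not rank the roles. The number of peaks was above the median of genes of similar length in 18, equal to it in 4 and below it in 8. The same split over all protein-coding genes is not given, so whether this is an excess cannot be said. Over the summed lengths, where long genes weigh most, the 7 core genes had 4.94 peaks per 100 kb and all protein-coding genes 5.69. The median over single genes went the other way. It was 8.7 per 100 kb for the 7, 7.53 for the 30 and 4.14 for protein-coding genes. These medians were not matched for length, and a short gene with a peak has a high density (15.7 for Ihh with its 1 peak). All of the 7 had a body peak, against 64.7% of protein-coding genes. The medians therefore do not show an excess, and the ratio matched for length was 0.952.

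Among the densest of those with at least 3 peaks were Scube3, which helps release the ligand (9 peaks, 27.5 per 100 kb), and the kinase gene Stk36 (6 peaks, 16.9 per 100 kb). The highest fold in Scube3 was 42.7, and 3.59% of genes of its length had as many peaks. Among genes over 20 kb, Arl13b, a small GTPase of the cilium, Cul3, a ubiquitin ligase scaffold, and Csnk1a1, a kinase that phosphorylates Gli proteins, had no body peak, where 85.4%, 89.6% and 79.8% of genes of their length had one. Each of the 3 ligand genes had a number of peaks that is common at its length. Shh had no peak in 10.3 kb, as had 41.7% of genes of its length. Ihh had 1 and Dhh had 2 (folds up to 28.6), numbers reached by 47.8% and 44.1% of genes of their lengths. A peak within 1 kb of a gene end was found in 3 of 30, against 21.8% of protein-coding genes. These lay at the 3′ end of Scube3 (fold 13.7) and of Ift172 (fold 10.2) and at Btrc (fold 7.46). No peak overlapped a promoter window of any of these genes with an entry.

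Genes most like each member were taken as those of similar length with the same number of body peaks and the nearest median fold in this list. They were Bmp4 and Gm46965 for Ihh (of 438 with 1 peak), Ak3 and Gpr149 for Ptch1 (of 177 with 3), Gckr and Psph for Smo (of 257 with 3) and Rtn4rl1 and Pxdn for Sufu (of 48 with 8). For Gli1 they were Dynlt1b and Ipo4 (of 56 with 5), for Gli2 Unc80 and Sulf1 (of 26 with 10) and for Gli3 Rab3c (of 22 with 4). Their median folds were within 0.165 of the member's on the log2 scale. The likeness rests on 1 list.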

How the data were processed

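The data were 1 peak list of MBD-seq, for 3 control and 3 cKO cultures. Per the submitters' processing notes, fastp, Bowtie2 and MACS2 were used with mm10 and GRCm38; versions and settings are not given in the sources used here. Per the peak names, 3 datasets were merged with Samtools before calling. For each peak the authors' caller gave a fold ratio over background, 2 significance values (−log10 of p and of q) and a score, the −log10 q times 10 without its decimals. Peak starts were made 1-based, and 1 incomplete last line was left out. The lowest −log10 q was 20.004.

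Pileup and background were solved from fold = (pileup + 1)/(background + 1) and the Poisson p for whole pileups, within 1% of the spacing; 99.97% of peaks matched and 25 did not. Recovery and counting were tested on simulated data and returned the known pileup and peak number in 100% of 4999 peaks and 299 gene intervals. The simulated folds and p-values were made with the same formula. The test therefore checks the solving and not whether the caller used this formula. Simulated backgrounds did not reach the 39.2 reads of the Gli2 peak. Genes and promoters came from RefSeq tables of GRCm38.p6, matched by symbol, and entries on unplaced contigs were left out. Genes outside chromosomes 1 to 6 and 10 to 19, and those at the end of chromosome 6, were also left out. No count or share of genes here is therefore genome-wide. Strand was known for 12547 protein-coding genes, from the promoter table. Exons are not in the tables, so exons and introns were not analysed. Peaks were placed by midpoint, and similar length means within 25%. No depth per sample can be given. Python 3.11.15, numpy 2.4.6, pandas 2.3.3 and scipy 1.17.1 were used.

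The genes and lists were chosen with earlier results of these data known. Named were the 7 genes with their peaks (all where a gene has at most 6, otherwise the extremes by fold, width, background and gene end), other pathway genes whose ends have a peak inside 1 kb, the 3 densest with at least 3 peaks and those over 20 kb with none, and 2 like genes each; the ligands Shh and Dhh were added after their values were seen. Under this rule 2 items are not reported here. The planned edgeR test of control against cKO could not be made. Alternatives changed the −log10 q threshold, fold, placement, merging, flank, length tolerance and background.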

Additional observations from a re-analysis of the deposited data

How the results depend on the processing

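No paired analysis was possible because values per sample are absent from the list; leaving out replicates, the DESeq2 fit and the unfiltered fit were not run for the same reason. The 38 peaks became 26 when the −log10 q had to reach 50, 13 when it had to reach 100 and 17 at or above the list's median fold, 34 after merging within 500 bp, 35 with a 5 kb and 45 with a 20 kb flank, and 37 at the lowest background. The ratio of body peaks to genes of similar length (0.952) was 0.958, 0.776 and 0.902 under the 3 filters in that order, 0.953 by summit, 0.949 by any overlap, 0.914 after merging, 0.933 and 1.05 with genes within 10% and 50% of the length, 1.04 with all genes as background and 1.12 at the lowest background, so its side of 1 depends on these choices. Median fold, width and −log10 q were 14.9, 480 bp and 97.2 at a −log10 q of 50, 30.7, 666 bp and 268 at 100, 22.7, 560 bp and 166 at the median fold, 12.1, 304 bp and 65.4 after merging and 12.8, 362 bp and 78.2 for bodies alone, the filters acting by construction. The other pathway genes with a peak stayed between 20 and 24 of 30. The share of all protein-coding genes under the same filters is not given, so these counts show no excess or lack. The share of body peaks past the middle of the gene, added after seeing the data, ran from 80.8% to 91.7% over 6 alternatives, with none in the first 10%.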
